A study of Mus musculus with 9 samples.

Results

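The S100 calcium-binding proteins are represented here by 10 genes, namely S100a8, S100a9, S100a7a, S100a3, S100a4, S100a6, S100a10, S100a11, S100a14 and S100a16, taken by name from a table that gave FPKM for 34637 genes and joined by gene identifier to counts of 55401 genes. All 10 were found and all 10 passed the filter on low counts, which left 20817 genes for testing. The RNA came from the back skin of C57BL/6 male mice, 6 to 8 weeks old. Every mouse was shaved and sensitized on day 1 with 200 μL of 1% DNCB, a small reactive molecule that raises a contact allergy, and was challenged 9 times with 100 μL of 0.5% DNCB between days 4 and 21. The Model group (4 libraries) then received water, and the FJDHF group (5 libraries) received the Fangji Dihuang formulation, a plant decoction given by mouth each day after day 7, at the study's medium dose, until day 28. Both groups therefore carry the DNCB dermatitis, and skin without DNCB was not analysed here. The question was whether these genes differ in skin between mice given the formulation and mice given water.

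Column codes were not explained in the sources used here. The 5 MR columns (MR1, MR3, MR3_4, MR4_5 and MR5) were taken as FJDHF and the 4 MXL columns (MXL1, MXL12, MXL3_4 and MXL_3) as Model, from the number of columns of each kind and because MX abbreviates the Chinese term for a model (mo xing). Each direction given here rests on that assignment. No code was matched to a single mouse, n counts libraries, and whether a code with more than 1 number marks pooled RNA was not tested. Total counts were 74648669 to 79474215 per library, so depth differed little. Skin markers were present throughout, with Krt5 and Krt14 of basal keratinocytes, Krt1 and Krt10 of differentiated keratinocytes and Col1a1 and Col1a2 of fibroblasts counted in every library. Elane, a neutrophil granule protease, was at 0 in all Model libraries and failed the filter.

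S100 proteins are small proteins with EF-hand loops that bind calcium, and most of them work as dimers. Inside the cell they bind annexins, myosin and other partners in a calcium-dependent way, and some are released from damaged or activated cells and act on receptors such as RAGE (Ager) and TLR4 (Tlr4). S100a8 and S100a9 form calprotectin, which fills the cytosol of neutrophils and is induced in keratinocytes of inflamed skin, where IL-17 is a known inducer. S100a7a is the mouse relative of psoriasin, S100a3 is a protein of the hair cuticle, S100a4 is found in fibroblasts and migrating cells, S100a6, S100a10 and S100a11 are widely expressed, and S100a14 and S100a16 are found mostly in epithelia. The annotation in the deposited table put S100a8 and S100a9, but not S100a7a, in the IL-17 signaling pathway.

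The 10 genes lie on chromosome 3 (GRCm38). In the order of the chromosome, S100a14 (start 90526856), S100a16, S100a3, S100a4, S100a6, S100a7a, S100a8 and S100a9 (end 90695721) form one cluster, and S100a11 and S100a10 lie apart from it, from 93520488 to 93564643. S100a9 is on the minus strand and the other 9 are on the plus strand. S100a8 spans 90668978 to 90670035 and S100a9 spans 90692632 to 90695721. The listed span of S100a3, from 90584659 to 90602702, overlaps that of S100a2 (90560363 to 90591531), which had 2 to 40 counts per library against 6137 to 39895 for S100a3. In GENCODE M21, Gm42674 overlaps exons of S100a3 and S100a4 on the same strand and Gm23464 overlaps S100a3 on the opposite strand, and both were at 0 counts in every library.

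RefSeq promoter windows of GRCm38.p6, each of 300 bases from 250 before the start of a transcript, were found for 8 of the 10 genes and not for S100a10 and S100a14. The windows of S100a8 and S100a9 are shown because these genes varied together across libraries. Shorter stretches of S100a4, S100a7a and S100a3 (at the most downstream of its 4 starts) are shown beside them. S100a7a and S100a3 did not follow S100a8 across libraries (r = −0.074 and −0.048), but S100a4 did so in part (r = 0.549). Stretches of S100a6, S100a11 and S100a16 are not shown, although S100a16 did not follow S100a8 either (r = −0.132). Each runs 5′ to 3′ on the strand of the gene and ends 10 bases after the start. Capitals mark TATAAA, the core of a TATA box, and matches to TTNNGNAA, a loose form of the C/EBP motif.
S100a8: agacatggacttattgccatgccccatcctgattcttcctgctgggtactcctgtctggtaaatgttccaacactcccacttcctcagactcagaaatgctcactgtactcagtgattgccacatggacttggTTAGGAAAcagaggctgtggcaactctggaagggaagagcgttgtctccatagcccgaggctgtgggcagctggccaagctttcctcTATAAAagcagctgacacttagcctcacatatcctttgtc
S100a9: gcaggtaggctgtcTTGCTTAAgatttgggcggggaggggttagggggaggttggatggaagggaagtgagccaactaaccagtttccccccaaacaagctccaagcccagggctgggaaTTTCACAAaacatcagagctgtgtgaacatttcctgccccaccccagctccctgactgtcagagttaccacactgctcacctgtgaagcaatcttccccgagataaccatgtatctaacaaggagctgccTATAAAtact
S100a4: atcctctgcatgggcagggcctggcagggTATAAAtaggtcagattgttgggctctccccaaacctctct
S100a7a: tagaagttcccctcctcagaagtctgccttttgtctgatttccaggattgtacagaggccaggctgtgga
S100a3: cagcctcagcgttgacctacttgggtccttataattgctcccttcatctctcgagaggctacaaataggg
These stretches lie on chromosome 3 at chr3:90668821-90669080 (plus strand) for S100a8, chr3:90695712-90695971 (minus) for S100a9, chr3:90603710-90603779 (plus) for S100a4, chr3:90654242-90654311 (plus) for S100a7a and chr3:90600154-90600223 (plus) for S100a3.

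Motifs were searched on both strands of the whole 300 bases, by letters that were chosen after the sequences had been seen. TATAAA was present in a window of S100a3, S100a4, S100a8 and S100a9 and in 13.6% of the 32851 windows of all genes. By window this was 4 of the 12 windows of the 8 genes, and in S100a3 it lay at a start other than the one shown. On the strand of the gene, from 40 bases before the start to the start itself, TATAAA stood in S100a4, S100a8 and S100a9. This was 3 of the 12 windows, and the share was 2.45% of all windows. In S100a8 it begins 30 bases before the annotated start. In S100a9 it begins at the annotated start and not before it, so S100a9 counts only because the range includes the start itself. TTNNGNAA was present for S100a3, S100a8 and S100a9 (4 of the 12 windows) and in 40.7% of all windows, so it is a common match. TGANTCA, the letters of an AP-1 motif, was present for S100a11 and S100a16 (2 of the 12 windows) and in 7.81% of all windows. For NF-kB only a narrow form of the motif was searched. That form was present in none of these 8 genes' windows and in 0.411% of all windows, so it is a rare match. Looser forms of the NF-kB motif were not tested, so their presence in these windows is not known. A match of letters describes the window and does not show binding.

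Per length of transcript, S100a11 was the most abundant of the 10 genes, at 670.6 ± 167.6 FPKM (SD over 9 libraries), and its lowest library (405.6 FPKM) lay above the highest library of any other gene except S100a9 in MXL12 (464.4 FPKM). S100a14 (202.7 ± 62.1 FPKM) and S100a10 (191.1 ± 41.6 FPKM) followed, and S100a14 exceeded S100a10 in only 5 of 9 libraries. S100a3 (101.5 ± 67.4 FPKM), S100a6 (95.6 ± 16.2 FPKM), S100a9 (94.1 ± 145.6 FPKM), S100a16 (93.7 ± 24.5 FPKM) and S100a4 (82.9 ± 29.0 FPKM) could not be ordered, since neighbours in this series overlapped in range and each exceeded the next in 3 to 7 of 9 libraries. The lowest mean levels were those of S100a8 (27.7 ± 38.8 FPKM) and S100a7a (22.7 ± 12.4 FPKM), and S100a4 exceeded S100a8 in all 9 libraries although their ranges overlapped. The SD of S100a9 and of S100a8 was larger than their mean, which was not so for the other 8 genes.

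**Figure D1:**
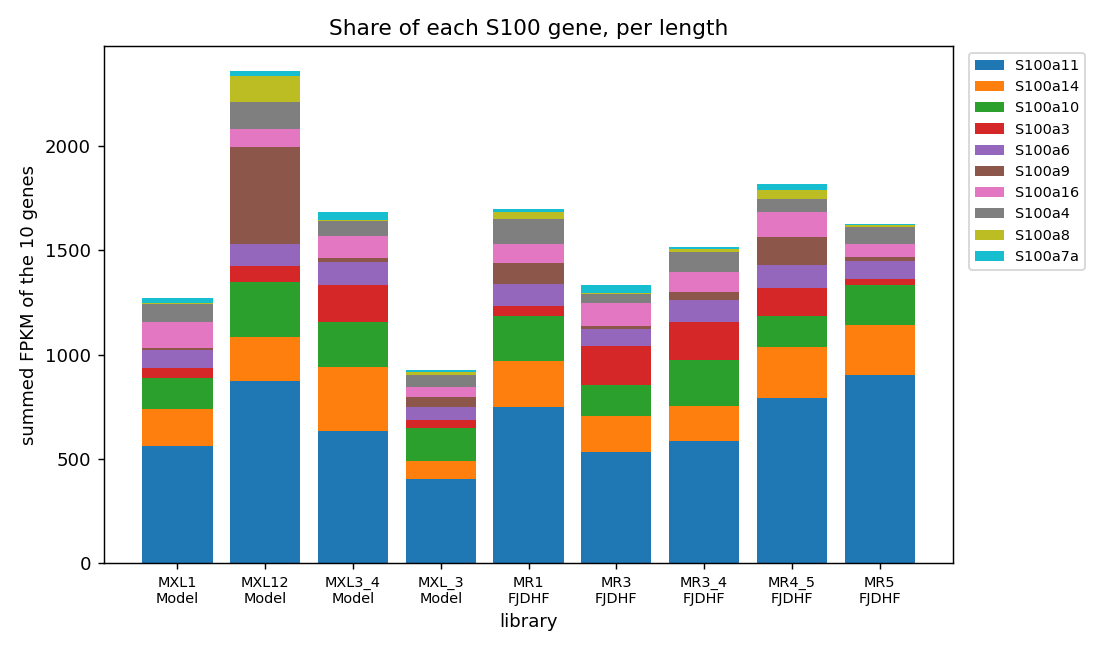
Summed FPKM of the 10 S100 genes in each library (bar height, axis from 0), divided by gene (colours in the order of mean FPKM). S100a11 makes up 37.0% to 55.4% of each bar, and S100a9 makes up 19.7% of the bar of MXL12 and 0.822% to 7.64% of the others.

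Summed over the 10 genes, the level ran from 927.8 FPKM in MXL_3 to 2362 FPKM in MXL12, and both extremes were Model libraries. In MXL12, S100a8 and S100a9 held 5.29% and 19.7% of the sum. In MXL1, the Model library with the least of both, they held 0.273% and 0.822%. S100a3 took 12.2% and 13.8% of the sum in MR3_4 and MR3 and 1.75% in MR5, so the makeup of the family differed several-fold between libraries of 1 group.

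S100a8 stood at 25.01, 4.07, 10.3, 28.6 and 5.52 CPM in the FJDHF libraries MR1, MR3, MR3_4, MR4_5 and MR5, where CPM are counts relative to library size, scaled with edgeR's TMM factors. In the Model libraries MXL1, MXL12, MXL3_4 and MXL_3 it stood at 2.48, 91.8, 3.76 and 11.0 CPM. MXL12 was far above all others, MXL_3 lay near the middle of the FJDHF libraries, MXL1 and MXL3_4 lay below every FJDHF library, and the groups overlapped. The Model mean was 27.3 ± 43.2 CPM (SD, n = 4) and the FJDHF mean 14.7 ± 11.4 CPM (SD, n = 5), but the medians lay the other way, at 7.38 CPM in Model and 10.3 CPM in FJDHF. edgeR's quasi-likelihood test gave a log2 fold change (FJDHF minus Model) of −0.89 (SE 1.00, 95% interval −3.12 to 1.34, adjusted p = 1.00). Mean log2(CPM + 0.5) differed by 0.12 in the opposite direction, with p = 0.913 in a two-sided exact permutation test, so the direction for S100a8 depended on the scale. In whole skin, fewer cells of a type and less RNA per cell cannot be told apart.

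S100a9, the partner of S100a8 in calprotectin, stood at 54.6, 8.55, 20.6, 73.7 and 10.1 CPM in the FJDHF libraries in the same order. The Model libraries had 5.61, 256.4, 9.24 and 27.1 CPM. MXL12 was again the highest and MXL1 the lowest library, MR4_5 and MR1 were next to the highest, and the groups overlapped. The mean was 74.6 ± 121.6 CPM in Model (SD, n = 4) and 33.5 ± 29.1 CPM in FJDHF (SD, n = 5), the median was 18.2 CPM in Model and 20.6 CPM in FJDHF, and edgeR gave a log2 fold change of −1.15 (SE 1.07, 95% interval −3.53 to 1.22, adjusted p = 1.00). Mean log2(CPM + 0.5) differed by only −0.076 (FJDHF minus Model), with p = 0.937 in the exact permutation test. The size of the difference for S100a9 therefore depended on the scale. Without MXL12 the log2 fold changes of S100a8 and S100a9 turned to 1.36 and 1.26.

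**Figure D2:**
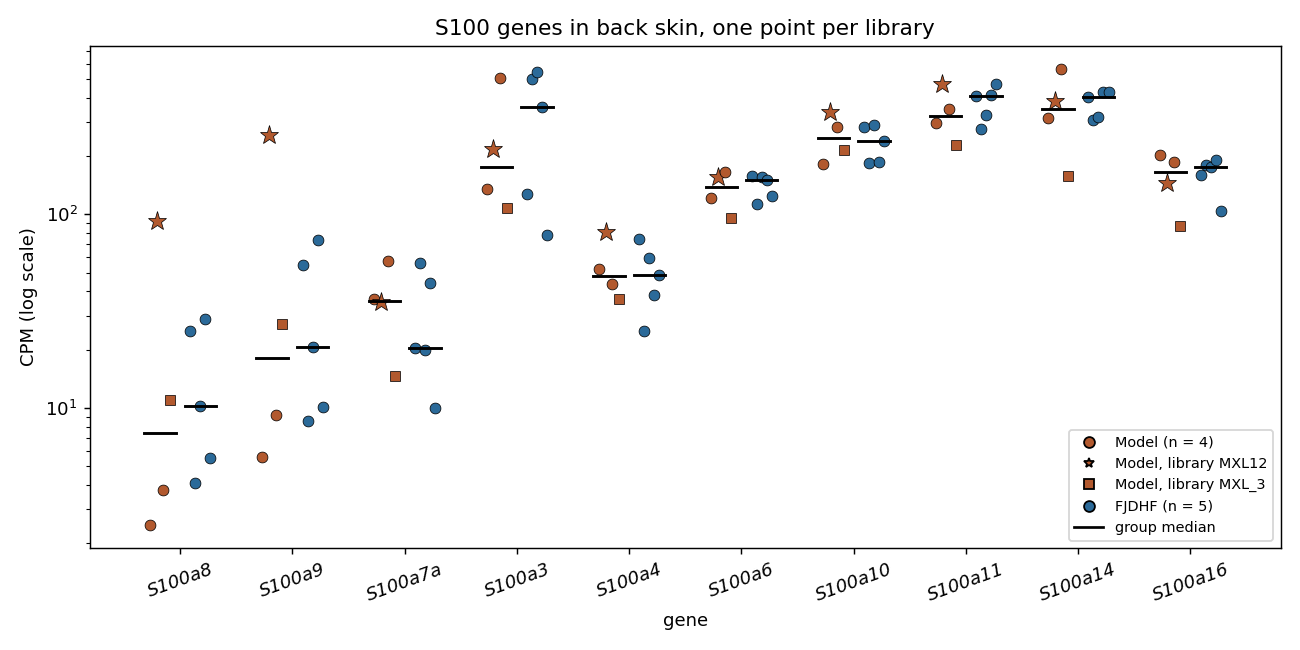
CPM of each S100 gene (log axis), with 1 point per library, Model in brown (n = 4; star MXL12, square MXL_3) and FJDHF in blue (n = 5), and black bars at group medians. The star stands apart at 91.8 CPM for S100a8 and 256.4 CPM for S100a9, and the points of both groups overlap for every gene.

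Both calprotectin genes kept nearly the same proportion in every library. S100a9 had 443 to 19372 counts and S100a8 had 196 to 6936, yet the ratio of S100a9 to S100a8 counts lay between 1.82 (MR5) and 2.79 (MXL12), a range of 1.53-fold, while the CPM of S100a8 and S100a9 ranged 37.0-fold and 45.7-fold. Their log2(CPM + 0.5) values correlated with Pearson's r = 0.997 (exact permutation p = 5.51e-06, adjusted p = 4.96e-05 over 9 relations) and Spearman's rho = 0.983 (exact p = 4.96e-05, adjusted p = 0.000446), and r was 0.991 without MXL12 and MR4_5, the 2 libraries farthest from the median. The count ratio was 2.49 ± 0.221 in Model (SD, n = 4) and 2.14 ± 0.278 in FJDHF (SD, n = 5). That difference, looked at after the values were seen, had p = 0.0952 in a two-sided exact permutation test. Per length, S100a9 exceeded S100a8 by 2.43-fold to 3.71-fold.

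Neutrophil genes were set beside calprotectin as a score, the mean log2(CPM + 0.5) of 9 of the 10 listed genes that passed the filter (Ly6g, Retnlg, Csf3r, Cxcr2, Mmp8, Ngp, Ltf, Camp and Mpo). It was 2.49 in MXL12 and 2.51 in MXL_3 and 0.896 to 1.65 in the other 7 libraries. Their summed level was 20.6 to 180.6 CPM in Model and 26.2 to 50.7 CPM in FJDHF. MXL12 therefore had the highest S100a8, S100a9 and summed neutrophil level. MXL_3 had a score as high, but a summed neutrophil level of 76.0 CPM and 11.0 CPM of S100a8. The score weighs its 9 genes alike, although Ly6g, Camp and Mpo averaged only 0.31, 0.66 and 0.24 CPM over the 9 libraries. Over the 9 libraries the score correlated with S100a8 at r = 0.723 (exact permutation p = 0.0289, adjusted p = 0.0649) and rho = 0.783 (exact p = 0.0172, adjusted p = 0.0517), and with S100a9 at r = 0.742 (exact p = 0.0228, adjusted p = 0.0649) and rho = 0.80 (exact p = 0.0138, adjusted p = 0.0517). None of these passed 0.05 after adjustment. Without MXL12 and MXL_3, r was 0.837 for S100a8 and 0.829 for S100a9. All 9 neutrophil genes had a negative log2 fold change (median −0.99), but the score, the mean on the log scale, differed by only −0.39, and the 180.6 CPM were those of MXL12. Of the 9 genes, 1, Mmp8 (neutrophil collagenase), had an unadjusted p under 0.05 and groups that did not overlap. Among all tested genes the shares were 1.57% and 0.514%. The part of neutrophil RNA in the calprotectin values was not tested.

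Activated keratinocytes are the other known source of calprotectin in skin. The score of Krt6a, Krt6b, Krt16, Krt17 and Sprr1b ran from 4.34 (MXL_3) to 8.36 (MR4_5) and correlated with S100a8 at r = 0.353 (exact permutation p = 0.351, adjusted p = 0.492; rho = 0.35) and with S100a9 at r = 0.331 (exact p = 0.382, adjusted p = 0.492; rho = 0.30). Without MR4_5 and MXL_3, r was 0.463 and 0.435. MR4_5, the library highest in this score, was second to MXL12 in both S100a8 and S100a9. By contrast MR1, the next library after MR4_5 in both genes, had a score of 6.71, near the middle of the libraries.

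**Figure D3:**
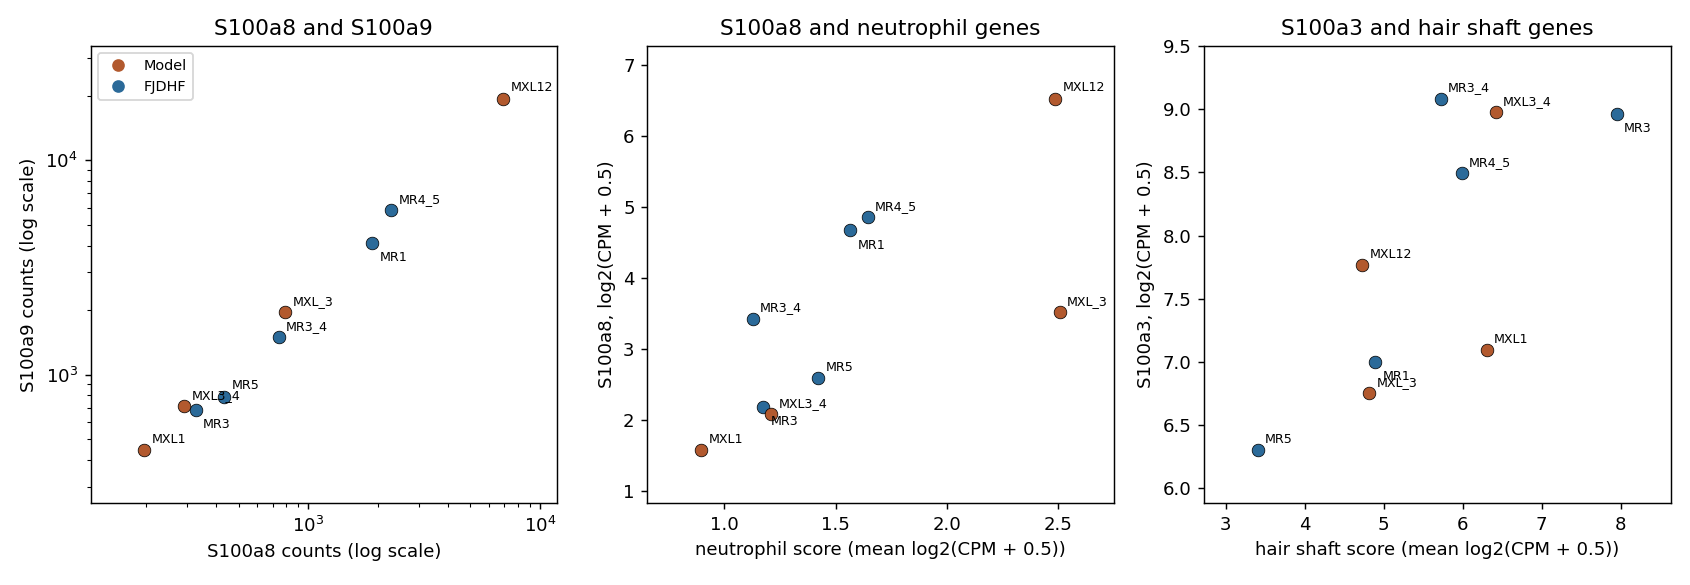
Left, S100a9 against S100a8 counts (log axes). Middle, S100a8 against the neutrophil score. Right, S100a3 against the hair shaft score (middle and right in log2(CPM + 0.5)), with 1 labelled point per library (Model brown, FJDHF blue). S100a8 and S100a9 follow one line (r = 0.997), MXL_3 lies below the trend of the middle panel (r = 0.723), and 4 libraries lie high on the right (r = 0.741).

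S100a7a, the psoriasin relative, stood at 20.4, 56.0, 19.9, 44.2 and 10.01 CPM in MR1, MR3, MR3_4, MR4_5 and MR5. In MXL1, MXL12, MXL3_4 and MXL_3 it stood at 36.7, 35.0, 57.5 and 14.6 CPM. MXL3_4 and MR3 were the highest and MR5 and MXL_3 the lowest, so each group held both ends. The log2 fold change was −0.26 (edgeR, SE 0.51, 95% interval −1.38 to 0.87, adjusted p = 1.00), and the exact permutation p was 0.563. S100a7a did not follow its chromosomal neighbours S100a8 (r = −0.074 over the 9 libraries) and S100a9 (r = −0.022), and its highest correlations within the family were with S100a16 (r = 0.777) and S100a3 (r = 0.715), given as descriptions. Against the activated keratinocyte score r was 0.277 (exact p = 0.477, adjusted p = 0.537; rho = 0.10), and it turned to −0.344 without MR4_5 and MXL_3.

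S100a3, the hair cuticle member, was high in 4 libraries, at 498.6, 541.8 and 359.6 CPM in MR3, MR3_4 and MR4_5 and 504.0 CPM in MXL3_4. It was lower in the other 5, at 127.4 and 78.2 CPM in MR1 and MR5 and 135.9, 216.9 and 107.2 CPM in MXL1, MXL12 and MXL_3. High and low libraries occurred in both groups, which overlapped. The mean was 241.0 ± 181.4 CPM in Model (SD, n = 4) and 321.1 ± 211.1 CPM in FJDHF (SD, n = 5), with a log2 fold change of 0.41 (edgeR, SE 0.62, 95% interval −0.96 to 1.79, adjusted p = 1.00) and an exact permutation p of 0.667.

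The hair shaft score, over 8 hair keratins (Krt31, Krt33a, Krt33b, Krt34, Krt35, Krt81, Krt83 and Krt86), ran from 3.40 in MR5 to 7.95 in MR3, and Krt85 of this list was not analysed here. It correlated with S100a3 at r = 0.741 (exact permutation p = 0.0188, adjusted p = 0.0649) and rho = 0.667 (exact p = 0.0589, adjusted p = 0.133), and r fell to 0.546 without MR3 and MR5, on which the relation in part rests. MXL1 had a higher hair shaft score (6.30) than MR3_4 (5.72) and far less S100a3. The genes most like S100a3 over the 9 libraries, among 10456 candidates with a mean of at least 10 CPM, were Lef1 (r = 0.967), a transcription factor of the Wnt pathway, Alox8 (r = 0.96), a lipoxygenase, and Bmp2 (r = 0.96), a growth factor. Padi3, the enzyme that converts arginines of S100a3 to citrulline, ranged 5.81-fold beside 6.93-fold for S100a3, from 39.6 to 229.9 CPM in FJDHF and 58.1 to 193.5 CPM in Model, with a log2 fold change of −0.03 (edgeR, SE 0.53, adjusted p = 1.00).

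S100a4, found in fibroblasts and motile cells, stood at 74.8, 25.01, 59.5, 38.4 and 48.4 CPM in MR1, MR3, MR3_4, MR4_5 and MR5. In MXL1, MXL12, MXL3_4 and MXL_3 it stood at 52.4, 81.1, 43.7 and 36.6 CPM. MXL12 and MR1 were the highest, MR3 was the lowest, and the groups overlapped, with a log2 fold change of −0.12 (edgeR, SE 0.33, 95% interval −0.85 to 0.61, adjusted p = 1.00) and an exact permutation p of 0.706. S100a4 correlated with the macrophage score (Adgre1, Cd68, Csf1r, Cd163, Mrc1 and C1qa) at r = 0.184 (exact p = 0.634, adjusted p = 0.634; rho = 0.25), which was −0.068 without MR1 and MXL3_4. With the fibroblast score (Col1a1, Col1a2, Dcn, Lum and Pdgfra) r was 0.44 (exact p = 0.236, adjusted p = 0.425; rho = 0.35), and 0.782 without MR4_5 and MXL_3. Myh9, the myosin heavy chain that S100a4 binds, had a log2 fold change of −0.15 (edgeR, SE 0.41, adjusted p = 1.00). The gene most like S100a4 was Rsad2 (r = 0.97), an interferon-induced antiviral protein.

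S100a10 and S100a11, the annexin partners, and S100a6, or calcyclin, were the steadiest members. S100a10, which binds Anxa2 without needing calcium, ranged 1.87-fold, from 181.8 CPM (MXL1) to 338.9 CPM (MXL12), with a log2 fold change of −0.10 (edgeR, SE 0.23, 95% interval −0.61 to 0.40). S100a11, a partner of Anxa1, ranged 2.08-fold, from 227.8 CPM (MXL_3) to 472.9 CPM (MR5), and its log2 fold change was 0.17 (SE 0.24, 95% interval −0.35 to 0.70). S100a6 ranged 1.71-fold, from 96.3 CPM (MXL_3) to 164.5 CPM (MXL3_4), with a log2 fold change of 0.06 (SE 0.19, 95% interval −0.36 to 0.48). In each of the 3 genes the groups overlapped, the adjusted p was 1.00, and the exact permutation p was 0.754, 0.444 and 0.69. Anxa2 and Anxa1 themselves had log2 fold changes of −0.12 (SE 0.21) and −0.19 (SE 0.27), with adjusted p = 1.00 for both.

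S100a14 and S100a16, the epithelial members, were lowest in the same Model library. S100a14 was at 157.5 CPM in MXL_3 and 565.0 CPM in MXL3_4, with the FJDHF libraries between them at 307.1 to 428.9 CPM, and its log2 fold change was 0.09 (edgeR, SE 0.31, 95% interval −0.60 to 0.77, adjusted p = 1.00). S100a16 was at 87.1 CPM in MXL_3 and 202.1 CPM in MXL1, with FJDHF libraries at 104.1 to 190.5 CPM, and its log2 fold change was 0.06 (SE 0.26, 95% interval −0.52 to 0.64, adjusted p = 1.00). Their exact permutation p was 0.659 and 0.683. The gene most like S100a16 was Gsdma (r = 0.966), a gasdermin of the epidermis, and the one most like S100a14 was Gid8 (r = 0.97), a subunit of a ubiquitin ligase.

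MXL_3 was the lowest of the 9 libraries in 4 of the 10 genes (S100a6, S100a11, S100a14 and S100a16). It also had the highest skeletal muscle score of Acta1, Ckm, Myh4, Mylpf and Tnnt3 (11.0 against 5.74 to 10.3 in the others) and the lowest scores of basal (7.70), differentiated (7.56) and activated keratinocytes. MXL12, the highest library in 4 genes (S100a8, S100a9, S100a4 and S100a10), had the lowest muscle score. The part of tissue makeup in these values was not tested. With the muscle score as a covariate in the edgeR fit, the log2 fold changes of S100a8 and S100a9 were −0.16 (SE 0.80) and −0.40 (SE 0.83), and the adjusted p stayed at 1.00 for all 10 genes.

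Across the family, 5 genes had a higher mean CPM in FJDHF (S100a3, S100a6, S100a11, S100a14 and S100a16) and 5 a lower one, whereas the group median was higher in FJDHF for 8 of the 10, S100a8, S100a9 and S100a4 included. The median log2 fold change was −0.02 beside −0.03 over the 20817 genes tested, of which 44.1% were higher. No member of the 10 passed an adjusted p under 0.05 with a 2-fold change, where edgeR called 0 of all tested genes (0.0%). None had an unadjusted p under 0.05, where 326 of all genes did (1.57%). None had groups without overlap in log2 CPM, against 0.514% of all genes, and none had an exact permutation p under 0.05, against 1.93%. For 6 members (S100a4, S100a6, S100a10, S100a11, S100a14 and S100a16) the 95% interval lay within a 2-fold change in either direction. For S100a8 and S100a9 it ran from 0.115-fold to 2.53-fold and from 0.0867-fold to 2.33-fold, so that a change of 2-fold either way could not be told from none with these libraries.

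**Figure D4:**
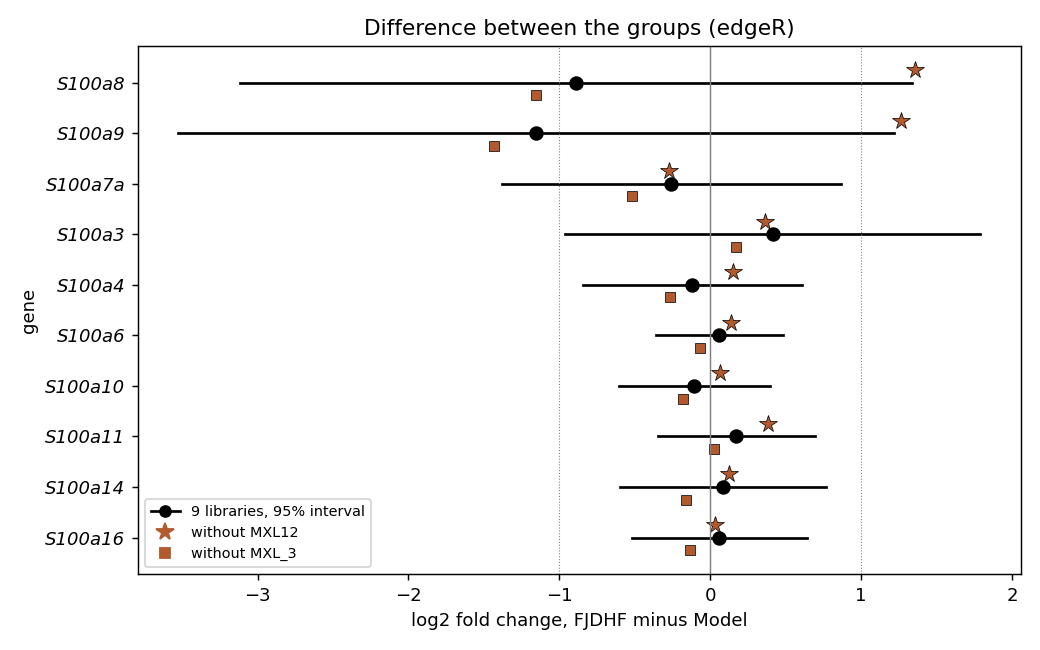
Log2 fold change (FJDHF minus Model) of the 10 S100 genes from edgeR, with black points and bars for the value and 95% interval over 9 libraries, stars for the value without MXL12 and squares without MXL_3. Every interval includes 0, and the stars of S100a8 (1.36) and S100a9 (1.26) lie on the other side of 0 from their points.

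The members differed most in how far libraries of the same group lay apart. The pooled within-group SD of log2(CPM + 0.5) was 1.88 for S100a9 and 1.72 for S100a8, higher than in 99.8% and 99.7% of the tested genes, whose median was 0.35. S100a3 (SD 1.14, 97.0%) and S100a7a (SD 0.91, 92.9%) followed. S100a4 (SD 0.56, 76.4%), S100a14 (74.5%) and S100a16 (64.8%) were more moderate, S100a11 (52.8%) and S100a10 (50.0%) lay near the middle of all genes, and S100a6 (SD 0.28, 33.0%) lay below it. The SD of S100a9 and S100a8 rests in part on MXL12, at 8.005 and 6.528 in log2(CPM + 0.5). The other Model libraries lay at 2.61 to 4.785 and 1.575 to 3.525. The FJDHF libraries lay at 3.178 to 6.213 and 2.194 to 4.865.

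**Figure D5:**
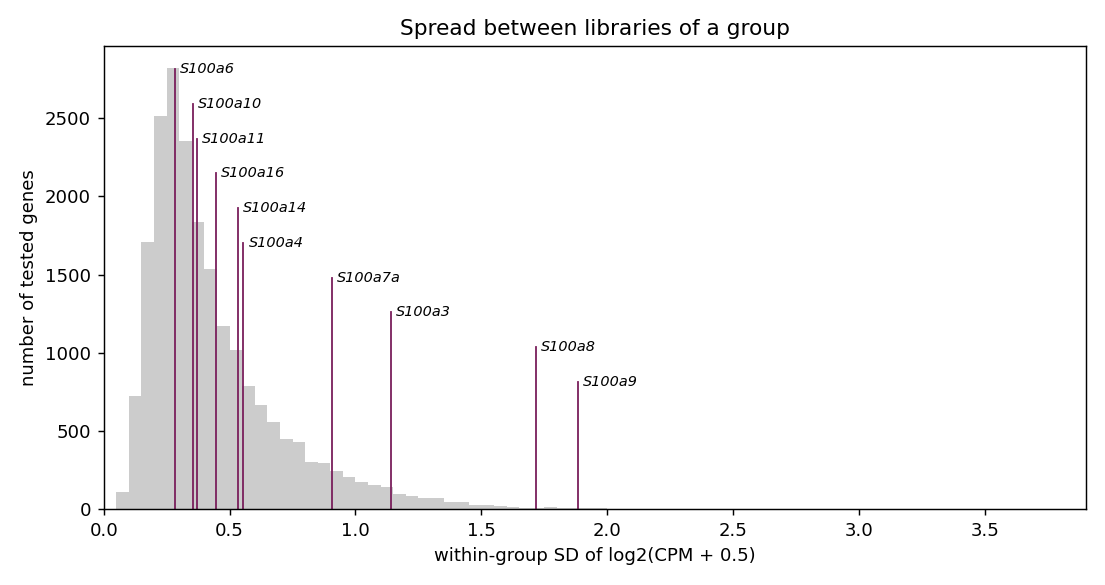
Histogram of the pooled within-group SD of log2(CPM + 0.5) of the 20817 tested genes (grey, number of genes), with a line for each S100 gene. S100a9 (1.88) and S100a8 (1.72) stand in the far right tail, while S100a6 (0.28), S100a10 and S100a11 lie in the bulk around the median of 0.35.

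The most similar gene outside the 10 listed genes was also found for each of the other members, by Pearson's r over the 9 libraries among the same candidates. It was Rpn2 for S100a8 (r = 0.914) and Tpm3 for S100a9 (r = 0.90), both well under the 0.997 between S100a8 and S100a9. For S100a9 the list of 3 also held Rpn2 (r = 0.897) and Myd88 (r = 0.887), the adaptor of TLR4. Myd88 ranged only 1.51-fold over the 9 libraries, beside 45.7-fold for S100a9. S100a7a was closest to Tchhl1 (r = 0.961), a gene of the trichohyalin-like family. S100a6 was closest to Psmb4 (r = 0.956), S100a10 to Rps27 (r = 0.961) and S100a11 to Pmaip1 (r = 0.967). These are the highest of many correlations over few libraries, and they are given as descriptions.

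Genes related to the family by sequence or function gave no call either. Of 7 other S100 genes listed, S100a1 (51.1 CPM on average), S100a13 (13.9 CPM) and S100b (8.18 CPM) passed the filter, 1 with a higher and 2 with a lower level in FJDHF (median log2 fold change −0.23), while S100a5, S100a7l2, S100g and S100z had at most 9, 21, 12 and 4 counts in any library. Receptors and sensors of released S100 proteins (Ager, Tlr4, Cd36, Bsg and Myd88) all had small negative log2 fold changes in edgeR, with a median of −0.08. Ager, which encodes RAGE, was at 0.722 ± 0.572 CPM in Model and 0.676 ± 0.325 CPM in FJDHF, and Tlr4 was at 44.5 ± 17.6 CPM and 42.0 ± 10.1 CPM. Among 6 intracellular partners and modifiers (Anxa1, Anxa2, Ahnak, Myh9, Cacybp and Padi3), 1 was higher and 5 were lower, with a median of −0.08. None of these 14 genes reached an unadjusted p under 0.05.

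Cell type lists gave the setting of these values. Differentiated keratinocyte genes were higher in FJDHF in 7 of 7 (Krt1, Krt10, Lor, Ivl, Flg, Dsg1a and Casp14), with a median log2 fold change of 1.23. In 5 of them the unadjusted p from edgeR was under 0.05, and none of these passed adjustment. Among all tested genes 44.1% were higher in FJDHF and 1.57% had an unadjusted p under 0.05. The activated keratinocyte list had 4 of 5 higher (median 1.19), the hair shaft list 7 of 8 (0.59), the macrophage list 6 of 6 (0.23) and the basal keratinocyte list (Krt5, Krt14, Col17a1, Itga6 and Trp63) 3 of 5 (0.10). The fibroblast list had 5 of 5 lower (median −0.42) and the skeletal muscle list 3 of 5 lower (−0.21). The direction of the muscle list depended on the scale. Mean log2(CPM + 0.5) was higher in FJDHF for 4 of its 5 genes, and its score differed by 0.32. On that scale the basal keratinocyte list had 5 of 5 higher (median difference 0.16) and the hair shaft list 6 of 8 (0.068). The hair shaft score differed by only 0.022 between the groups. MR3 alone had 2095 CPM of hair keratins in sum, against 100.1 to 561.3 CPM in the other FJDHF libraries. S100a14 and S100a16, the epithelial members, had log2 fold changes near 0 beside the larger values of the differentiated keratinocyte list, and that difference was not tested.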

How the data were processed

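Libraries of polyadenylated RNA kept strand information and were read from both ends. The authors deposited whole-number read counts per gene without normalization, and FPKM values that they had scaled for gene length and depth. The submitters' processing notes name HISAT, StringTie, DESeq2 and the build mm10, and give neither roles nor versions. 9 further columns of per-library values in the FPKM table, headed as counts, were not used and were not compared with the counts fitted here.

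Counts were fitted with edgeR 4.0.16 in R 4.3.3 (filterByExpr, TMM, quasi-likelihood test, no covariate, Benjamini-Hochberg adjustment over 20817 genes). CPM use TMM-scaled library sizes, and 3 counts correspond to 0.0375 to 0.0415 CPM, a floor for counting error only. Since nothing ties the codes to mice, p-values measure the spread between libraries. The two-sided exact permutation test on log2(CPM + 0.5) covered 126 splits, with 0.00794 as the smallest possible p. Relations used Pearson's r and Spearman's rho with exact permutation p over all pairings of 9 libraries.

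The genes named are the 10 members, 7 other S100 genes, 5 receptors and sensors, 6 partners and modifiers, and the 3 genes most like each member, of which some are given. S100a2 was added after its values were seen. The members and lists were chosen with earlier results of these data known. Promoters came from RefSeq (GRCm38.p6). Overlaps of genes were checked in GENCODE M21. The scripts were tested on simulated data. Alternatives were DESeq2 size factors, the DESeq2 1.42.0 Wald test, limma 3.58.1 on log2(FPKM + 1), other filters, a muscle score covariate, leaving out each library, a block, other pseudocounts and ranks. Python 3.11.15, scipy 1.17.1 and matplotlib 3.10.9 were used.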

Additional observations from a re-analysis of the deposited data

Results flagged for a closer look

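Of 38 checks for a library far from the others of its group, 1 stood out, and chance flags about 1 in 20 such groups. S100a16 in MR5 lay below the other FJDHF libraries by 0.711 of the group's whole range on the log2(CPM + 0.5) scale, just past the critical value of 0.71 (104.1 CPM against 160.0 to 190.5 CPM). On the CPM scale the gap was 0.647 of the range, below that value. MR5 was also the lowest of the 9 libraries in S100a3 and S100a7a and in the hair shaft score, and the part of hair follicle RNA in the S100a16 value was not tested.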

How the results depend on the processing

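No member passed the adjusted threshold under any alternative. Genes called numbered 0 with edgeR and with limma, and 12 with the DESeq2 Wald test, which called no member. Genes at an unadjusted p under 0.05 numbered 651 with the Wald test, 905 without a filter and 217 to 734 when 1 library was left out (326 in the fit of all 9). Members higher in FJDHF numbered 2 (without MXL_3) to 9 (without MXL12). Leaving out 1 library gave log2 fold changes of −1.28 to 1.36 for S100a8, −1.67 to 1.26 for S100a9, −0.62 to 0.065 for S100a7a, 0.14 (without MR3_4) to 1.07 (without MXL3_4) for S100a3, 0.026 to 0.38 for S100a11, −0.33 to 0.15 for S100a4, −0.069 to 0.17 for S100a6, −0.24 to 0.064 for S100a10, −0.16 to 0.40 for S100a14 and −0.14 to 0.21 for S100a16. Differences in mean log2(CPM + 0.5) ranged from −0.50 to 1.15 for S100a8, −0.76 to 1.03 for S100a9, −0.32 to 0.073 for S100a4, −0.069 to 0.19 for S100a6, −0.24 to 0.061 for S100a10, −0.13 to 0.48 for S100a14 and −0.15 to 0.25 for S100a16. With limma S100a8 was at 0.13, and with ranks in place of levels the difference of S100a9 was 0.45 ranks. Without the 2 farthest libraries, r was −0.344 for S100a7a with activated keratinocytes and −0.0683 for S100a4 with macrophages. The cause of these changes was not tested, beyond the fewer libraries in the fits that leave some out. Codes 1, 3 and 3_4 occur in both groups, but the codes were not explained and were not taken to pair libraries. The deviations of same-coded libraries correlated at 0.152, −0.227 and 0.0128 over 2000 genes. Libraries with different codes were not compared in this way, so these values cannot show whether the codes mark pairs. A replicate block on these 6 libraries gave 9 members higher and log2 fold changes of 1.19 for S100a8, 0.98 for S100a9, 0.14 for S100a4 and 0.15 for S100a10, and called no gene of the family. MXL12 is not among those 6 libraries.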
